A study of Mus musculus with 6 samples.

Results

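The nuclear genes for subunits of the oxidative phosphorylation machinery were examined in livers of mice lacking RECS1 (Tmbim1) in hepatocytes. The members are 59 genes taken from a list by symbol, of which 57 had a probe set that names 1 gene, out of 18029 genes measured. They comprise 27 genes of complex I, 4 of complex II, 7 of complex III, cytochrome c, 10 of complex IV and 8 of complex V (ATP synthase). Ndufs6 and Cox7b have no such probe set and were not analysed here. Each gene was represented by its brightest probe set by the mean of all 6 arrays, a choice that the knockout arrays enter as well.

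Oxidative phosphorylation turns the electrons of NADH and succinate into ATP in the inner mitochondrial membrane. Complex I (NADH dehydrogenase) and complex II (succinate dehydrogenase) pass electrons to coenzyme Q, complex III passes them on to cytochrome c, and complex IV (cytochrome c oxidase) hands them to oxygen. Complexes I, III and IV pump protons, and complex V uses the proton gradient to make ATP. Most subunits are encoded in the nucleus, and the rest in mitochondrial DNA, whose transcripts were not analysed here. In liver this machinery supplies the energy for gluconeogenesis and urea synthesis and takes up the electrons released by fatty acid oxidation.

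The control mice carried floxed RECS1 alleles (RECS1-flox, n = 3) and the knockout mice (RECS1-HKO, n = 3) were deficient in RECS1 in hepatocytes. All 6 animals were C57BL/6, received a high fat diet (HFD) for 8 weeks from the age of 8 weeks, and were 16 weeks old at dissection. The labels call the 3 samples of a genotype biological samples and name neither the Cre line that deletes the gene nor the sex of the mice. Values are log2 intensities, so a difference of 1 is a doubling, and array medians lay between 3.923 and 3.953. The targeted gene Tmbim1 stood at 7.62, 7.58 and 7.74 in control arrays and at 7.19, 7.14 and 7.06 in HKO arrays, a fall of 0.52 ± 0.08 (log2, SE; limma, Benjamini-Hochberg adjusted p = 0.026). Its adjusted p lay between 0.065 and 0.0967 when any 1 array was left out and was 0.0828 with the replicate number as a block, and whether its probes lie in the deleted part is not known here. Hepatocyte markers were bright, with 14 of 14 measured above the median gene. In whole liver, fewer cells of a type and less RNA per cell cannot be told apart.

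The subunit genes stood slightly higher in HKO liver, and no single one passed the test. The HKO mean exceeded the control mean in 50 of 57 members (87.7%), against 48.8% of all genes. The median difference of the members was 0.084 log2 units, against -0.004 over all genes and -0.013 over genes at or above the median brightness. None of the 57 rose or fell (limma, Benjamini-Hochberg adjusted p under 0.05), against 1.01% of all genes (0.56% higher, 0.449% lower), and the lowest adjusted p of a member was 0.285. At an unadjusted p under 0.05, 4 members were higher (7.02%, against 6.03% of all genes) and 1 was lower (1.75%, against 6.96%). The share of nominally higher members was therefore near the background, while the share of positive signs was not. The members were read on the same arrays and can move together, so their signs are not independent observations.

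The median standard error of the members was 0.075 log2 units, against 0.093 over all genes and 0.088 over genes at or above the median brightness (4.69), where 56 of the 57 members lay. All 57 intervals of 95% lay within a 1.5-fold change in either direction, as did those of 92.2% of all genes. Individual differences ran from -0.215 (Ndufs7) to 0.226 (Ndufb2), which is 0.862 to 1.17 times the control level. In 19 members (33.3%) all 3 HKO arrays lay above all 3 control arrays, against 8.58% of all genes. By the chosen probe sets, in 0 members did all HKO arrays lie below all control arrays, against 10.1% of all genes. Another probe set of Ndufs4, also above the median gene, did so. It read 5.68, 5.61 and 5.69 in control and 5.46, 5.47 and 5.36 in HKO arrays (-0.23, limma adjusted p = 0.283). A further bright probe set of Ndufs4 gave 0.186.

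**Figure D1:**
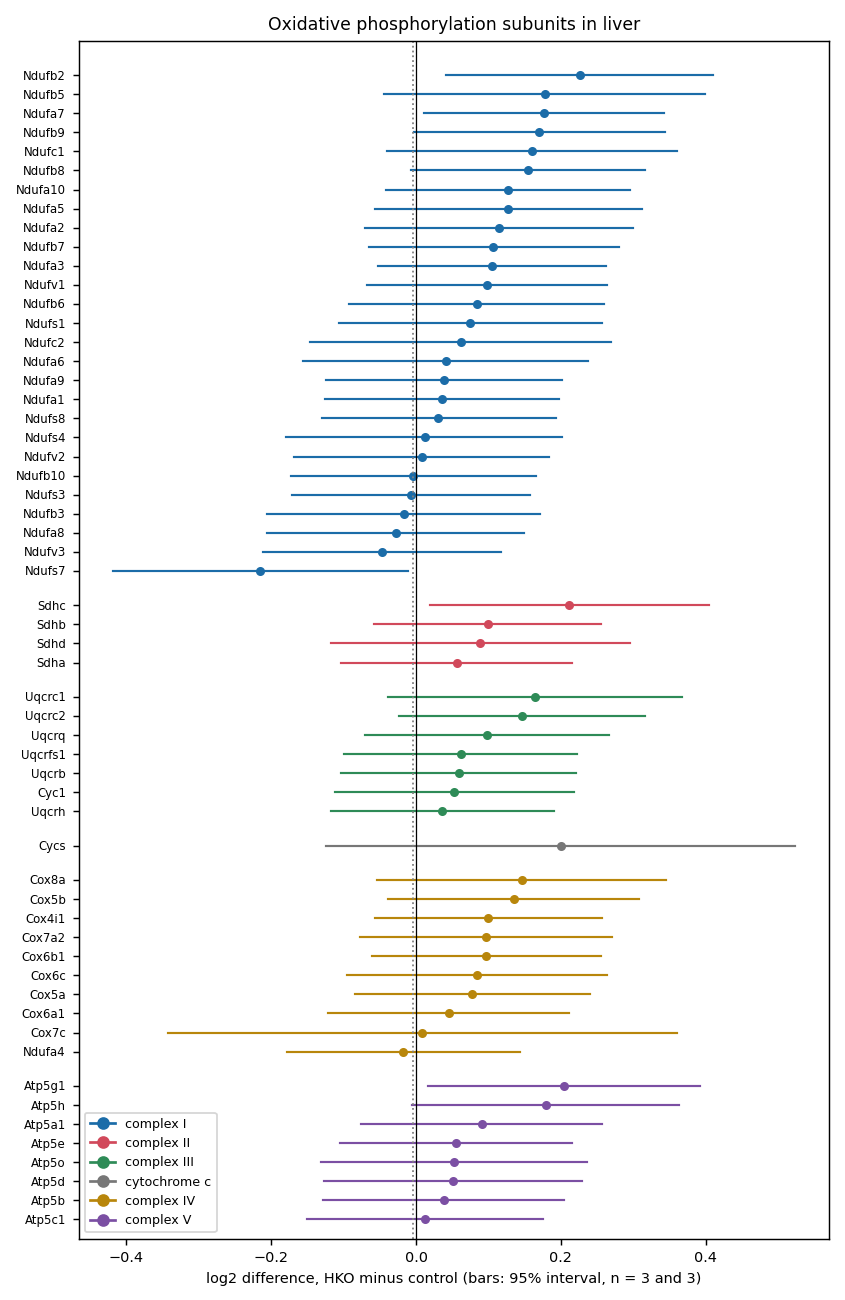
Log2 difference (HKO minus control) of each of the 57 subunit genes on the x axis, grouped by complex, with bars for the 95% interval (3 arrays per genotype); the dotted line is the median of all genes (-0.004). Of the points, 50 lie to the right of 0, and the intervals of 4 genes to the right and of Ndufs7 to the left leave out 0.

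The HKO arrays did not share the difference equally. Taking each member relative to its control mean, the median stood at -0.001, 0.015 and -0.004 in control 1, 2 and 3, and at 0.097, 0.032 and 0.135 in HKO 1, 2 and 3. HKO 2 thus lay closest to the controls. Over all genes the 3 HKO arrays stood at -0.012, -0.007 and 0.001. Over genes at or above the median brightness they stood at 0.006, -0.035 and -0.006. HKO 2 was therefore the lowest HKO array among bright genes in general as well. HKO 3 held the highest of the 6 values in 34 members (59.6%, against 18.6% of all genes), HKO 1 in 15 and HKO 2 in 3. The number of members above all 3 control arrays was 39 in HKO 1, 25 in HKO 2 and 45 in HKO 3. Without HKO 2 the median of the members was 0.111 with 54 higher, and without HKO 3 it was 0.056 with 49 higher. The spread of the member median between arrays of 1 genotype was 0.038 (pooled SD).

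**Figure D2:**
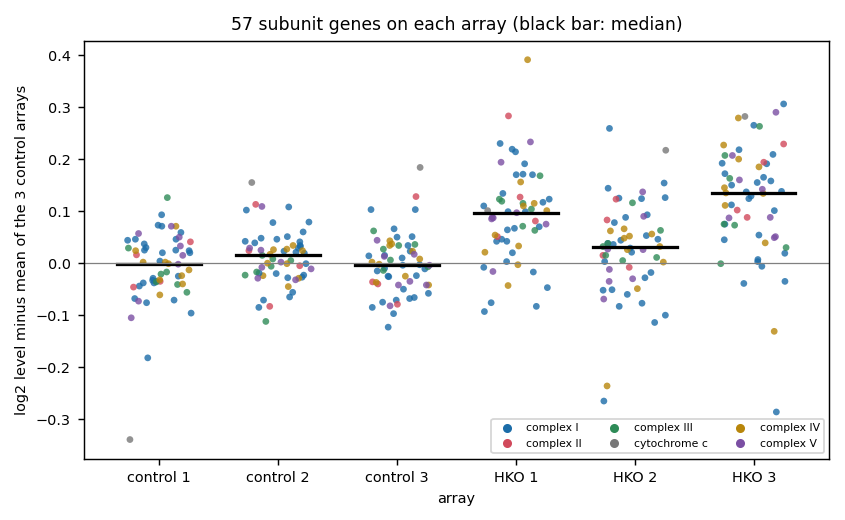
Log2 level of the 57 subunit genes on each array minus the gene's mean over the 3 control arrays (y axis), by array (x axis), coloured by complex; the black bar is the median over the genes. The medians of HKO 1 (0.097) and HKO 3 (0.135) lie above those of the control arrays, and that of HKO 2 (0.032) lies nearer to them.

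Sequences upstream of the members were set beside these values, since transcription of many subunit genes is known to depend on a few shared factors. Among these are NRF1, the ETS-family factor GABP, YY1, CREB, which binds the CRE element, and the estrogen-related receptors (ERR). RefSeq promoter windows (GRCm38.p6, 250 bases before to 50 after the start) were found for 46 of the 57 members, 50 windows in all because 4 genes have more than 1 start. The NRF1 core, GCGCA and GCGC with any 1 base between them, searched on both strands like the other motifs, was in 22% of these windows, against 7.44% of 17969 windows of genes on the array and 4.6% of all 32851. The ETS motif CCGGAAG was in 24% (13% of array genes, 8.86% of all), the YY1 motif AAGATGGC in 12% (3.39% and 2.75%), the CRE motif TGACGTCA in 8% (2.49% and 1.79%) and the ERR motif AAGGTCA in 6% (3.92% and 4.72%). At least 1 of the 5 motifs was in 60% of the windows of the members, in 26.4% of those of array genes and in 20.2% of all. A match describes these letters and shows no binding.

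The 250 bases before the start are shown for 3 members that carry matches, with the motif letters in capitals, as they read on the strand of the transcript (CTTCCGG is the ETS motif on the other strand). Ndufb2 (chr6:39592315-39592564, plus strand), an accessory subunit of complex I, has the largest difference of the list and holds an ERR and a CRE match. Atp5h (chr11:115419920-115420169, minus strand), a stalk subunit of ATP synthase, holds an NRF1 core and an ETS match, and so does Sdhd (chr9:50603850-50604099, minus strand), a membrane anchor of complex II.
Ndufb2: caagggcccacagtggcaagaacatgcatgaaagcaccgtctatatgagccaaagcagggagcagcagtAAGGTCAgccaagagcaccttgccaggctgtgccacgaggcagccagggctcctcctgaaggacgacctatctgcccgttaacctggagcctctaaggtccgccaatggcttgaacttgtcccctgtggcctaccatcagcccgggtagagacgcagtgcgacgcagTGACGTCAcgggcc
Atp5h: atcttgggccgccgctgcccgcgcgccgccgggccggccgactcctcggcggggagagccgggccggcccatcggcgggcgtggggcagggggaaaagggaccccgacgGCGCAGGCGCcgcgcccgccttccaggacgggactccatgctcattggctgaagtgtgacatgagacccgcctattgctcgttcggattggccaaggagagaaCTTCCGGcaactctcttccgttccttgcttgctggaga
Sdhd: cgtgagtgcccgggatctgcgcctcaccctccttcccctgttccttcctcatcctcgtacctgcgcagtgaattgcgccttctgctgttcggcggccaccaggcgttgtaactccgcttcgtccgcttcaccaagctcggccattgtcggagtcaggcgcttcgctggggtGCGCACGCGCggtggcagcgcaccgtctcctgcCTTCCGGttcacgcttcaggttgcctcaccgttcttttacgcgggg

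The YY1 matches stood apart in place. All 6 lay after the start, between 23 and 39 bases into the transcript, while 40.2% of the 927 YY1 matches in all windows lay after the start. The motif itself holds an ATG. All 6 genes encode complex I subunits, as do 27 of the 57 members. Of the 57, 11 had no window and could hold no match. Each of the 6 matches is written in the direction of the transcript. The 30 bases around each are shown with the motif in capitals, 5′ to 3′ along the transcript.
Ndufa3 (chr7:3617384-3617413, plus strand): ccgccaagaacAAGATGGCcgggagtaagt
Ndufa9 (chr6:126849097-126849126, minus strand): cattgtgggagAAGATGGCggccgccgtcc
Ndufb8 (chr19:44555393-44555422, minus strand): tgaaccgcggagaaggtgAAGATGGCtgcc
Ndufc1 (chr3:51408915-51408944, minus strand): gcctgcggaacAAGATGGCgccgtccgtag
Ndufs4 (chr13:114388045-114388074, minus strand): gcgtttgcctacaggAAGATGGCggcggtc
Ndufs7 (chr10:80249462-80249491, plus strand): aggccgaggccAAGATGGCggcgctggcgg
Their differences between genotypes were 0.105 for Ndufa3, 0.039 for Ndufa9, 0.155 for Ndufb8 (-0.035 by the median of its probe sets), 0.16 for Ndufc1, 0.012 for Ndufs4 and -0.215 for Ndufs7 (log2). The 6 genes that share the motif therefore included the lowest difference of the list.

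**Figure D3:**
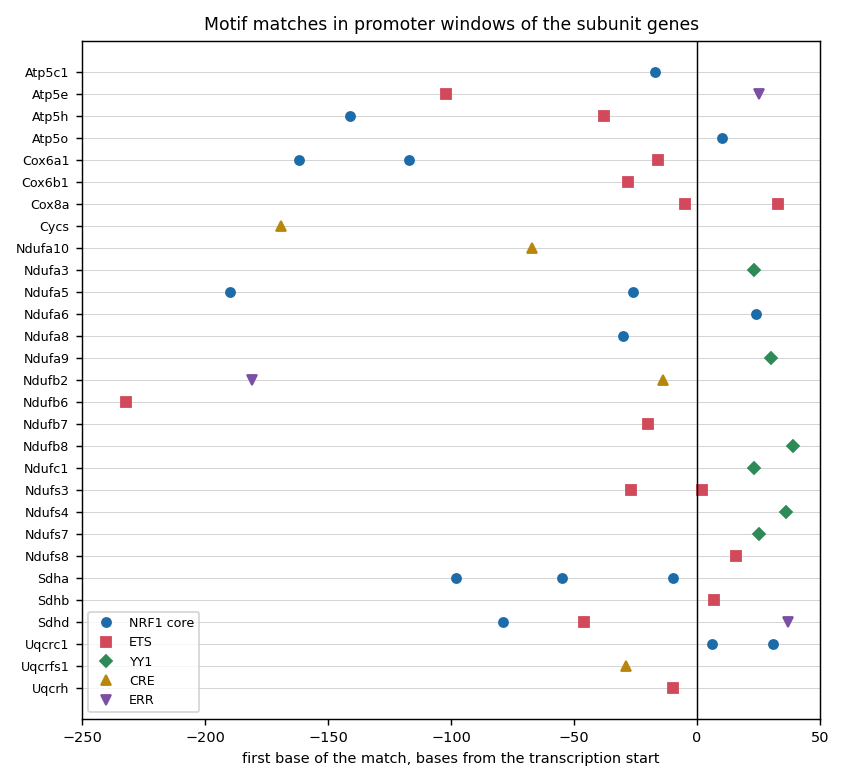
Positions of the motif matches in the promoter windows of 29 subunit genes: the x axis gives the first base of the match in bases from the transcription start (line at 0), the rows are genes and the symbols are motifs. All 6 YY1 matches lie right of the start, and 11 of the 15 NRF1 core matches lie left of it, with 1 site of Ndufa5 drawn at both of its starts.

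In complex I, 21 of 27 members were higher in HKO liver and 6 lower, with a median of 0.075. Ndufb2, an accessory subunit of the membrane arm, stood at 9.46, 9.47 and 9.32 in control 1, 2 and 3 and at 9.63, 9.57 and 9.72 in HKO 1, 2 and 3. The groups did not overlap, and the difference was 0.23 ± 0.08 (log2, SE; limma, Benjamini-Hochberg adjusted p = 0.285). Its other bright probe set gave 0.225. Ndufa7, another accessory subunit, stood at 10.33, 10.21 and 10.27 in control and at 10.48, 10.40 and 10.46 in HKO arrays. All of its 5 probe sets were above the median gene and gave differences from 0.145 to 0.223 (adjusted p of the brightest 0.352).

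Ndufb9, also of the membrane arm, read 10.90, 11.05 and 10.96 in control and 11.20, 11.10 and 11.13 in HKO arrays, again without overlap (0.17 ± 0.08, limma adjusted p = 0.394). Ndufs7 went the other way. This subunit carries the iron-sulfur cluster that passes electrons to coenzyme Q. It stood at 9.82, 10.02 and 9.90 in control and at 9.82, 9.65 and 9.63 in HKO arrays, where HKO 1 met the lowest control (-0.215 ± 0.089, limma adjusted p = 0.361). Its other probe set gave -0.103.

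The 6 measured core subunits of complex I, most of which carry the flavin or iron-sulfur clusters, had a median difference of 0.019. The 21 measured accessory subunits had one of 0.105. This split was made after the values were known and was not tested. Of the core subunits, Ndufv1, which binds NADH, had 0.098, Ndufs1 0.075, Ndufs8 0.031, Ndufv2 0.008 and Ndufs3 -0.007. Besides Ndufs7 and Ndufs3, the negative differences in complex I were those of Ndufv3 (-0.047), Ndufa8 (-0.028), Ndufb3 (-0.017) and Ndufb10 (-0.004), each smaller than its standard error. Ndufc2 was measured by a single probe set near the median gene, with values from 4.88 to 5.11 over the 6 arrays.

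All 4 subunits of complex II, the enzyme shared with the tricarboxylic acid (TCA) cycle, were higher in HKO liver, with a median of 0.094. Sdhc, a membrane anchor, stood at 8.35, 8.5 and 8.31 in control and at 8.67, 8.51 and 8.62 in HKO arrays. The lowest HKO value, in HKO 2, was all but level with control 2, and the difference was 0.21 ± 0.08 (limma adjusted p = 0.343). Sdhb, the iron-sulfur subunit, read 10.60, 10.55 and 10.52 in control and 10.68, 10.64 and 10.65 in HKO arrays (0.10 ± 0.07, adjusted p = 0.598), also without overlap. The second anchor Sdhd had 0.089 and the flavin subunit Sdha 0.056.

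All 7 members of complex III were higher as well, by 0.036 (Uqcrh) to 0.165 (Uqcrc1). Uqcrc2, one of the core proteins on the matrix side, stood at 9.88, 9.92 and 9.96 in control and at 10.09, 9.98 and 10.13 in HKO arrays, without overlap (0.15 ± 0.07, limma adjusted p = 0.461). Its other probe set gave 0.249. Uqcrc1, the partner core protein, read 10.20, 9.96 and 10.06 in control and 10.19, 10.19 and 10.34 in HKO arrays, so that control 1 lay above HKO 1 and HKO 2 (0.165 ± 0.089, adjusted p = 0.49). The subunits that carry the redox centres, Cyc1 (cytochrome c1) and Uqcrfs1 (the Rieske protein), had 0.053 and 0.062.

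Cytochrome c, the mobile carrier between complexes III and IV, rested on 1 array. Cycs read 10.26, 10.75 and 10.78 in control and 10.70, 10.82 and 10.88 in HKO arrays, so that control 1 stood apart from the other controls. The difference was 0.20 ± 0.14 (limma adjusted p = 0.608) and was 0.031 without control 1. Its other bright probe sets gave 0.107 and 0.000.

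In complex IV, 9 of 10 members were higher, with a median of 0.09 and no interval that left out 0. Cox5b, which sits on the matrix side of the enzyme, stood at 11.80, 11.83 and 11.76 in control and at 11.91, 11.86 and 12.02 in HKO arrays (0.135 ± 0.075, limma adjusted p = 0.508). All 3 HKO values were above the controls, and its 3 other bright probe sets gave 0.117 to 0.164. Cox8a, a small membrane subunit, read 9.75, 9.73 and 9.70 in control and 9.89, 9.73 and 10.01 in HKO arrays, with HKO 2 among the controls (0.15 ± 0.09, adjusted p = 0.539). Cox4i1, which helps to regulate the enzyme by ATP, had 0.1, and Ndufa4, once counted in complex I and now in complex IV, had -0.018. Cox7c rested on a dim probe set, with values from 3.91 to 4.54.

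Several complex IV subunits have a muscle form beside the form found in liver. The muscle forms Cox6a2, Cox7a1 and Cox8b were all below the median gene, with group means from 2.55 to 4.43, and differed by 0.022, 0.314 and -0.045 (limma adjusted p between 0.543 and 0.938). The value of Cox7a1 was 0.114 without control 1, and the signs of Cox6a2 and Cox8b turned without HKO 1, that of Cox8b also without control 3. The liver forms Cox6a1, Cox7a2 and Cox8a were measured at 12.63 to 12.79, 11.59 to 11.84 and 9.70 to 10.01 and differed by 0.045, 0.097 and 0.146. None of the 9 striated muscle markers was above the median gene. Their summed linear level ran from 86.4 to 89.2 in control and from 83.9 to 90.6 in HKO arrays.

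All 8 members of complex V were higher, with a median of 0.054. Atp5g1, 1 of the genes for the proton-carrying ring of subunit c, stood at 9.83, 9.93 and 9.95 in control and at 10.14, 9.99 and 10.19 in HKO arrays (0.20 ± 0.08, limma adjusted p = 0.347). Atp5h, of the stalk that holds the head in place, read 10.74, 10.96 and 10.84 in control and 11.04, 10.99 and 11.06 in HKO arrays (0.18 ± 0.08, adjusted p = 0.4). Neither gene overlapped between the genotypes. The 5 genes of the catalytic part (Atp5a1, Atp5b, Atp5c1, Atp5d, Atp5e) had smaller differences by their chosen probe sets, from 0.012 to 0.091. Atp5o, which joins head and stalk, had 0.052. Other bright probe sets gave 0.147 and -0.054 for Atp5a1, 0.141 for Atp5d, 0.148 for Atp5o and 0.143 for Atp5h. The contrast thus depended on the probe set and was not tested.

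**Figure D4:**
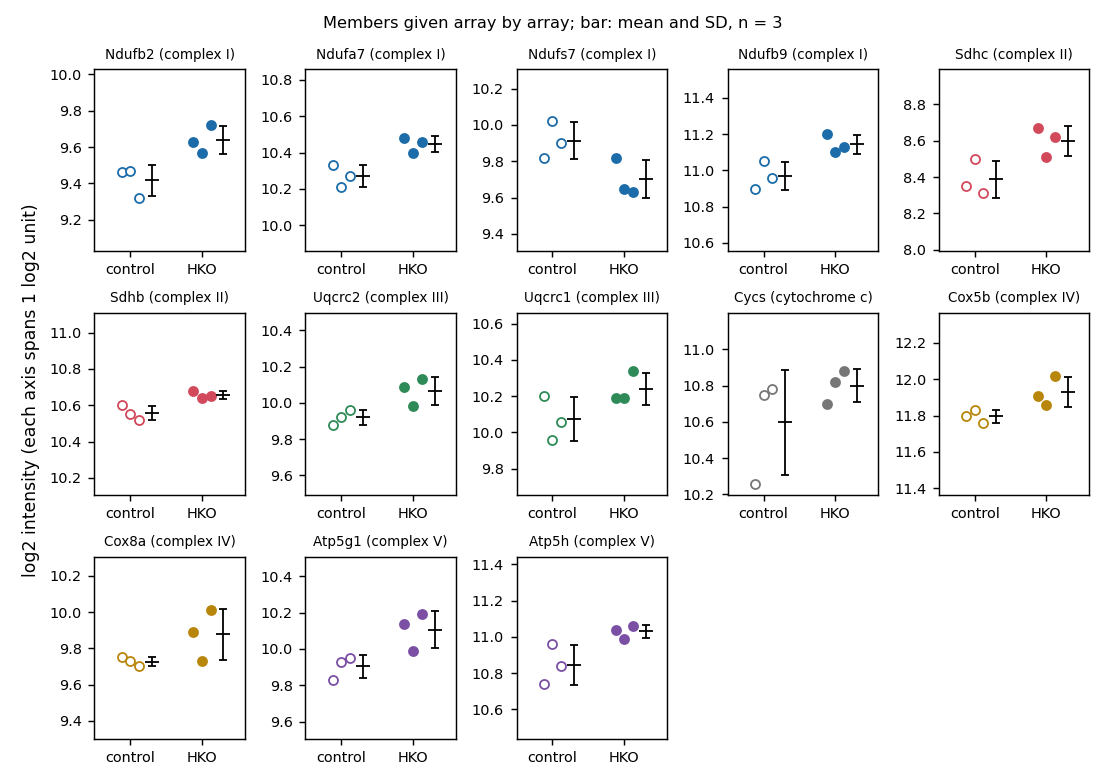
Log2 intensity (y axis, each panel spanning 1 unit) of 13 members in the 3 control (open) and 3 HKO arrays (filled), with mean and SD beside the points. Ndufs7 is the panel in which the HKO values lie lower, and control 1 of Cycs (10.26) lies apart from control 2 and control 3.

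The medians of the 5 complexes lay between 0.054 (complex V) and 0.094 (complex II), a range smaller than the interval of any single member. Their order was not stable. Without 1 array the median ran from 0.037 to 0.103 in complex V, from 0.049 to 0.101 in complex I and from 0.071 to 0.123 in complex II, and by the median of the probe sets it was 0.165 in complex II and 0.098 in complex V. It stayed above 0 in each complex under every alternative run. The shift was also seen beyond 1 probe set per gene. The 57 members have 122 probe sets, of which 105 are above the median gene, and 93 of these (88.6%) were higher in HKO liver, against 47.5% of all such probe sets. The 105 include chosen probe sets, and of the 17 dimmer ones 10 were higher. Among 49 bright probe sets other than the chosen one, in 34 genes, 45 had the sign of the chosen one. Those of Ndufs4 (-0.23) and Ndufb8 (-0.226) were among the others. In some of the 49, control 1 lay below the other controls. It read 8.37 in 1 of Ndufb6, against 8.78 and 8.81 in control 2 and 3, and 9.31 in 1 of Cox6c, against 9.66 and 9.68. In 13 members the chosen probe set carries the suffix _s_at or _x_at, by which Affymetrix marks probes that may bind other transcripts as well. With only other probe sets allowed, 44 of 54 members were higher, with a median of 0.083.

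Subunits outside the list were also measured, and none of them passed the test. Of 6 other complex I subunits 5 were higher (median 0.101), with Ndufs5 at 0.19 ± 0.09 (limma adjusted p = 0.403) and the acyl carrier Ndufab1 at 0.17. Ndufab1 has 5 probe sets, whose median gave -0.178. Both Uqcr10 (0.117, or 0.005 by the median of its probe sets) and Uqcr11 (0.139) of complex III were higher. Of 10 other genes of complex V and its inhibitor 8 were higher (median 0.074), with Atp5pb at 0.20 (adjusted p = 0.486; 0.094 without control 1) and Atp5g3, another gene for subunit c, at 0.14 (0.467). The 8 other genes of complex IV include the muscle forms given above, and only 2 of the 8 were above the median gene. Among the 8, 5 were higher, with a median of 0.012 that ran from -0.063 to 0.033 without 1 array. In 2 of the 8 all HKO arrays lay below all control arrays, against 10.1% of all genes. One of these, Cox7a2l, stood at 8.74, 8.62 and 8.74 in control and 8.49, 8.43 and 8.55 in HKO arrays (-0.21 ± 0.08, adjusted p = 0.3), and had -0.081 without _s_at and _x_at probe sets. The other, the dim testis form Cox6b2, had -0.234 (0.375), or -0.137 without HKO 1.

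Genes that build and serve the complexes did not share the positive sign of the subunits. Of 13 assembly factors of complex I 4 were higher and 9 lower (median -0.093), with Ndufaf3 at -0.23 and Ecsit at -0.18 (limma adjusted p = 0.31 and 0.309). Of 28 assembly factors of complexes II to V 12 were higher (median -0.007), with Sco2, a copper chaperone, at 0.50 (0.216; 0.329 without HKO 1) and Cox18 at -0.28 (0.225). Of 38 mitochondrial ribosomal proteins 14 were higher (median -0.047), with Mrps9 at 0.50 (0.185; 0.25 by the median of its probe sets) and Mrps12 at -0.20 (0.281). Of 17 measured cytosolic ribosomal proteins 0 were higher (median -0.16), with Rps6 at -0.38 (0.0529) and Rplp0 at -0.28 (0.168). None of these genes passed. Rps6 passed with the trend and robust variance model (adjusted p = 0.0295) and without the dimmer genes (0.0254), but had -0.103 (0.666) by the median of its probe sets.

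Genes of the TCA cycle, of fatty acid oxidation with other PPARa targets, and regulators of mitochondrial biogenesis were also measured. Of 16 TCA cycle genes 11 were higher (median 0.067) and none passed, with Suclg2, a succinyl-CoA ligase subunit, at 0.34 (limma adjusted p = 0.0768) and citrate synthase (Cs) at 0.29 (0.316), which was 0.171 without HKO 3. The median of the Cs probe sets gave 0.09. Suclg2 passed with the trend and robust variance model (0.0203) and without the dimmer genes (0.0383), and had 0.229 (0.288) without _s_at and _x_at probe sets, of which its brightest is 1. Of 19 genes of fatty acid oxidation and PPARa targets 18 were higher (median 0.265) and 5 rose: Ehhadh, Acot2, Acot3, Acot4 and Vnn1, by 0.72 to 2.36 (limma adjusted p from 0.00172 to 0.0431). Ehhadh and Acot3 passed without any 1 array. Acot4 did not without HKO 1 (0.0551) or control 2 (0.0502), Acot2 not without HKO 1, control 1, control 2 or control 3 (0.113 to 0.154), and Vnn1 not without any array other than control 1 (0.06 to 0.0781). Among regulators of mitochondrial biogenesis 10 of 13 were higher (median 0.088) and none passed. By the median of the probe sets 8 were higher (median 0.044) and Esrrg, an estrogen-related receptor, passed at 0.47 (limma adjusted p = 0.032), where its brightest probe set gave 0.119 (0.809). The coactivator Ppargc1b stood at 7.11, 7.35 and 6.95 in control and 6.74, 6.77 and 6.64 in HKO arrays (-0.42 ± 0.11, adjusted p = 0.16), and Gabpb1, a GABP subunit, had 0.18 (0.459), or -0.182 by the probe set brightest in control arrays.

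**Figure D5:**
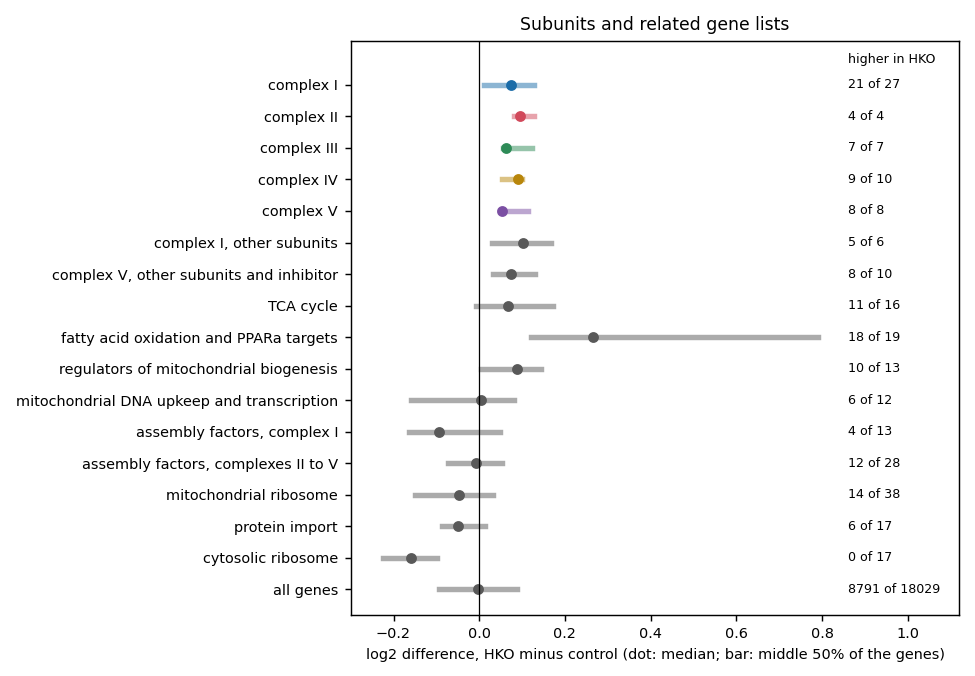
Median (dot) and middle 50% (bar) of the log2 differences (x axis, HKO minus control) of the genes in each list, with the number of genes higher in HKO liver of those measured. The 5 complexes have medians from 0.054 to 0.094 and the cytosolic ribosome one of -0.16. Fatty acid oxidation and PPARa targets have one of 0.265, and all genes one of -0.004.

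Nnt, the transhydrogenase of the inner membrane, which uses the proton gradient to make NADPH, was the only gene past the test among 18 inner membrane carriers and other electron carriers. It stood at 7.71, 7.54 and 7.77 in control and at 8.85, 9.15 and 9.31 in HKO arrays (1.43 ± 0.13, limma adjusted p = 0.00173), and its other probe set gave 1.845. Part of this gene is known to be deleted in the C57BL/6J substrain, and the labels name the background only as C57BL/6. Summed linear levels of 2 marker lists also lay apart between the genotypes. That of 5 adipocyte markers ran from 50.3 to 70.6 in control and from 111 to 353 in HKO arrays, through 1 gene, the lipid droplet protein Cidea, which stood at 32.8, 14.9 and 11.5 in control and at 115, 71.8 and 311 in HKO arrays (linear level). Of the 5 markers 3 were lower, with a median of -0.055 (log2), and the defining marker Adipoq had -0.084 at a level from 2.97 to 4.09 (linear). Cidea had 2.945 (log2; limma adjusted p = 0.0549) and passed under 5 alternatives (0.042 to 0.0483). The sum of 5 cholangiocyte markers, 0 of them above the median gene, ran from 56.3 to 61.3 in control and from 45.5 to 50.6 in HKO arrays, with Sox9 at -0.663 (0.171), which passed without control 3 (0.0349). The part of these genes or of the background in the differences of the subunit genes was not tested. The ADP/ATP carrier Slc25a4 had 0.33 ± 0.09 (adjusted p = 0.164).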

How the data were processed

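Liver RNA of 6 mice was measured on Affymetrix arrays, from 400 ng of total RNA per the labels' protocols. The authors deposited log2 intensities of 38208 probe sets. The submitters' processing notes name RMA and limma, without versions or settings. RMA as commonly run equalizes the arrays' distributions, which hides any change common to all transcripts. Of the probe sets, 13 controls, 62 with several gene symbols and 3808 unnamed here were left out. The other 34325 gave 18029 genes. Of these probe sets 34131 matched RefSeq (GRCm38.p6) by identifier, with 0 symbols changed.

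The difference HKO minus control was fitted over all genes with lmFit and eBayes (limma 3.58.1, R 4.3.3; two-sided, Benjamini-Hochberg adjustment, threshold 0.05), and the code was tested on simulated data. There, with the spread of all genes, 2% of differences of 0.25 (log2) and 66% of those of 0.5 passed. Differences of the members ran from -0.215 to 0.226, so that the absence of calls does not show the members to be unchanged. Exact permutation of 3 against 3 arrays has 0.1 as its smallest p and was not used. The p-values measure the spread between these samples. Alternatives were other normalizations, probe set rules, variance models, a filter on dim genes, the replicate block and leaving out each array. Lists are described by counts and medians, with no test. Members and lists were chosen with earlier results of these data known. Members given array by array are, by unadjusted p, the lowest 4 of complex I and 2 of each other complex, with Cycs. From each other list of pathway genes the lowest 2 by p and any past the threshold are named, with Nnt and the muscle isoforms. Marker lists are given by counts, medians and summed levels. Of the markers only Cidea, Adipoq, Sox9 and Cd163 are named, chosen after the values were known. Replicate numbers are not stated to pair animals, so no block was used.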

Additional observations from a re-analysis of the deposited data

How the results depend on the processing

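None of the members passed in any of 15 refits with 1 probe set per gene, where their lowest adjusted p (limma) lay between 0.159 and 0.542, nor with each probe set tested on its own (0.283), nor at a threshold of 0.1 or 0.01. The number of members with a higher HKO mean lay between 44 (of 54 measured, without _s_at and _x_at probe sets) and 54 (of 57), and was 103 of 122 with each probe set on its own. By the probe set brightest in control arrays Ndufb5 had 0.024 in place of 0.178. The median difference of the members was 0.078 by that rule and 0.075 with quantile normalization. It was 0.079 with centring on array medians and 0.056 to 0.111 without 1 array. With the replicate block it was 0.084, and the genes past the threshold were 125 in place of 182 (deviations of same-numbered arrays correlated at -0.094, 0.069 and 0.112). Of the other genes named, the block ended the call of Tmbim1 (adjusted p = 0.0828) and Vnn1 (0.0546). Over all genes the threshold was passed by 78 to 161 without 1 array, 344 at 0.1 and 65 at 0.01. The sign was kept in all 15 refits by 44 members (42 higher, 2 lower).

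Some signs turned, and the cause was not tested. Most belong to main differences under 0.05 (log2), but Ndufab1 (0.174), Gabpb1 (0.18), Ndufb8 (0.155) and Uqcrq (0.098) had larger ones. With quantile normalization Ndufa9 stood at -0.001, Ndufv2 at -0.027 and Cox7c at -0.006. By the median of the probe sets Ndufb8 stood at -0.035, Ndufs4 at -0.022, Cox7c at -0.027, Atp5c1 at -0.04, Ndufab1 at -0.178 and Gabpb1 at -0.001. By the probe set brightest in control arrays Gabpb1 stood at -0.182. Without _s_at and _x_at probe sets, an alternative chosen after seeing the data, Uqcrq stood at -0.099, Cox7c at -0.061, Atp5c1 at -0.093 and Ndufab1 at -0.039. Without 1 array, differences ran from -0.046 to 0.001 for Ndufa4, -0.08 to 0.014 for Ndufa8, -0.078 to 0.03 for Ndufb3, -0.04 to 0.036 for Ndufb10, -0.04 to 0.014 for Ndufs3, -0.047 to 0.056 for Ndufs4, -0.003 to 0.055 for Ndufs8, -0.035 to 0.043 for Ndufv2, -0.183 to 0.13 for Cox7c, -0.025 to 0.036 for Atp5c1, -0.013 to 0.071 for Cox6a2 and -0.139 to 0.034 for Cox8b. With 3 arrays per genotype, precision is limited throughout.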

Other observations

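Other mitochondrial genes were mixed in sign. Of 17 genes of protein import 6 were higher in HKO liver (median -0.049), with the outer membrane receptors Tomm20 at 0.24 and Tomm22 at -0.23 (limma adjusted p = 0.272 and 0.351). Of 12 genes of mitochondrial DNA upkeep and transcription 6 were higher (median 0.005), with the helicase Twnk at -0.25 (0.191) and Tfb1m at -0.26 (0.228), both without overlap between the genotypes. Of 13 genes of antioxidant defence and coenzyme Q synthesis 9 were higher (median 0.043), with Gpx4 at 0.34 (0.379; 0.163 without HKO 3) and Coq5 at -0.19 (0.339). None of these genes passed.

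No marker passed (limma, adjusted p under 0.05) in the lists for hepatocytes (14 measured), Kupffer cells and macrophages (14), lymphocytes and neutrophils (12), endothelial cells (8), stellate cells and fibroblasts (9), cholangiocytes (5), striated muscle (9), adipocytes (5) and erythrocytes (3). The macrophage receptor Cd163 lay at the threshold (-0.476, adjusted p = 0.05, all HKO arrays below all control arrays) and passed under 6 alternatives (0.0249 to 0.0499). The list medians ran from -0.222 (cholangiocytes) to 0.05 (Kupffer cells and macrophages), and the latter ran from -0.103 (without control 2) to 0.26 (without control 1). The summed linear level of the hepatocyte markers ran from 73100 to 75200 in control and from 74400 to 78700 in HKO arrays.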
